A study of Mus musculus with 6 samples.

Results

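The transcripts of the TGF-beta pathway were examined in mouse Th17 cells, the helper T cells that make IL-17: the ligand Tgfb1, the receptors Tgfbr1 and Tgfbr2, the signal carriers Smad2, Smad3 and Smad4, the inhibitors Smad7 and Smurf2, and the corepressors Ski and Skil. These 10 genes were chosen by name, with earlier results of these data known. Each was found as a locus of its own among the 23203 loci of the deposited table. Naive CD4 T cells were cultured for 48 h with anti-CD3e bound to the plate (10 µg/ml) and anti-CD28 added at 1 µg/ml. The polarizing cytokines were TGFb1 protein at 2.5 ng/ml, IL-23 at 10 ng/ml and IL-6 at 20 ng/ml, and the cultures held either 250 µM 2DG (2-deoxyglucose, a glucose analogue used to inhibit glycolysis) or the vehicle, DMSO. Both groups therefore received TGF-beta from outside, and neither was a culture without it. Total RNA of 3 2DG and 3 vehicle libraries was sequenced. The labels name no mouse strain. They also leave unsaid if libraries within a group are from different mice or wells, so p-values reflect only how these libraries scatter, possibly for technical reasons.

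TGF-beta binds the type II receptor, which recruits and activates the type I receptor. The type I receptor phosphorylates Smad2 and Smad3, which join Smad4 and regulate genes in the nucleus. Smad7 and Smurf2 mark the receptors for degradation, and Ski and Skil (also called SnoN) sit on SMAD complexes and recruit corepressors until the signal degrades them. In mouse T cells TGF-beta together with IL-6 starts the Th17 programme, and Ski with Smad4 is known to restrain that programme until TGF-beta removes Ski. The values are FPKM (fragments scaled by transcript length and by library size) and measure transcripts only, not proteins or their phosphorylation. How library size was scaled is not given in the sources used here.

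Ski was the only member that passed the test: its transcript was 1.5-fold higher with 2DG than with vehicle, and that call was lost when any single library was left out. The other 9 did not pass, and 8 of these had mean ratios of 2DG over vehicle between 0.851 and 1.16; the remaining gene, Tgfbr1, stood at 1.57-fold with wide scatter. By limma on log2(FPKM + 1), with p-values adjusted by Benjamini-Hochberg over 10228 tested loci and a threshold of 0.05, 1 member was higher and 0 were lower, against a background of 1.53% of tested loci called higher and 1.19% called lower. The groups did not overlap for 1 of 10 members (Ski, higher), against 23.7% of all tested loci, 11.9% higher and 11.8% lower. The median log2 fold change of the members was 0.06, beside -0.01 over all tested loci. All 10 members passed the filter of a mean of at least 1 FPKM.

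The libraries were alike in some overall measures and differed in others. The 75th percentiles of FPKM lay between 10.9 and 11.6, and libraries of a group correlated with r between 0.984 and 0.991 across loci outside small RNA genes. Absolute depth is unknown, and rough relative depths, taking vehicle replicate 1 as 1, were 0.603 to 1.11 for the 2DG libraries and 0.418 to 1 for the vehicle libraries. Replicate 1 of each group differed from replicates 2 and 3 at the ribosomal RNA precursor Rn45s, listed at 7186 FPKM (2DG) and 12874 FPKM (vehicle) and at 0 in the other 4 libraries. Both also had the lowest sums of FPKM over all loci, 1471759 (2DG) and 1469420 (vehicle), against 1808447 to 1958739 in the other 4. Outside small RNA genes the sums were 387855, 406555 and 413980 in 2DG replicates 1, 2 and 3. In vehicle replicates 1, 2 and 3 they were 410315, 431033 and 403461, so vehicle replicate 1 was not the lowest there. Both titles of the replicate 1 libraries carry the number 17. The 6 T cell markers found (Cd3e, Cd3d, Cd3g, Cd4, Cd5, Lck) summed to 876 to 980 FPKM with 2DG and 889 to 1030 FPKM with vehicle, and 0 of them were called. The 5 Th17 markers summed here (Il17a, Il17f, Rora, Ccr6, Il23r) came to 2290 to 3000 FPKM with 2DG and 1680 to 1950 FPKM with vehicle. Il17a, Rora and Ccr6 were called higher with 2DG, Il17f and Il23r did not pass the test, and the part of this difference in the values of Ski was not tested. The sums of 5 B cell markers were 0.0945 to 2.25 FPKM with 2DG and 0.620 to 3.71 FPKM with vehicle, and those of 7 myeloid markers 1.19 to 3.55 FPKM with 2DG and 1.52 to 4.79 FPKM with vehicle. For 4 NK cell markers the sums were 0.270 to 0.632 FPKM with 2DG and 0.405 to 0.436 FPKM with vehicle, and for 3 erythroid markers 0.093 to 0.184 FPKM with 2DG and 0 to 0.256 FPKM with vehicle. Cd8b1 was detected while Cd8a was near 0, with a sum of 2.91 to 5.51 FPKM with 2DG and 2.68 to 3.31 FPKM with vehicle. Klrb1c, Fcgr1 and the globin genes Hbb-bs and Hba-a1 were listed at 0 in every library. The erythroid sums are therefore those of Alas2 alone. In bulk RNA, fewer cells of a type and less RNA per cell cannot be told apart.

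Ski and Tgfbr1, the members with the largest fold changes, both lie on chromosome 4, far apart. The 300 bases around the RefSeq start of each are shown (250 before, 50 after, build GRCm38.p6). They belong to the only member called and to the member with the largest fold change, 0.62 on the log2 scale. In GENCODE M21 Ski starts at 155222592, inside its window and before the RefSeq start. Part of the Ski window is thus transcribed in that annotation. Ski is on the minus strand at chr4:155222486-155222785 and Tgfbr1 on the plus strand at chr4:47352972-47353271, and capitals mark GGCGC, a GC-rich SMAD-binding element, on either strand.
Ski: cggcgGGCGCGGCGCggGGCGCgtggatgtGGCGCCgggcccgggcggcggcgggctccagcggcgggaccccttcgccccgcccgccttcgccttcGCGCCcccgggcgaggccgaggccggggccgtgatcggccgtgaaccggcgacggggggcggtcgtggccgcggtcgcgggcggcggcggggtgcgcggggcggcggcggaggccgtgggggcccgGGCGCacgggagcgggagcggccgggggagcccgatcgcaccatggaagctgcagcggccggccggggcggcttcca
Tgfbr1: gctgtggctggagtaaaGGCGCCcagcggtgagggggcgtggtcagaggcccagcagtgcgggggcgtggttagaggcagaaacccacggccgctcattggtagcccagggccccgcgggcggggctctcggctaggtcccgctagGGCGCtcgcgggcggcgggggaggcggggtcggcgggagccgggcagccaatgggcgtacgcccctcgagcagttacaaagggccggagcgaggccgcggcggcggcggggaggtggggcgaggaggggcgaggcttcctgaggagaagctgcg
GGCGC or its complement GCGCC began at 7 positions in the Ski window and at 3 in the Tgfbr1 window, overlaps counted, and 36.9% of 32851 windows of this length held at least 1. Members that were not called held them too, with 6 in the Smurf2 window and 2 in that of Tgfb1, while the Smad3 and Tgfbr2 windows held 0. The letters CAGAC, the core of the classical SMAD-binding element, were in neither window on either strand and were in 49.6% of all windows. TGTGGT, the core of the RUNX site, was in neither and was in 16.8% of all windows. The Ski window had a G and C content of 85.3%, above 99.9% of windows, against a median of 52.7%, and the Smurf2 window had 80.3%. A second annotated Tgfbr1 start, not shown, held CAGAC once, as did the Tgfbr2 window, and the Smurf2 window held it at 2 positions. Of the 10 members, 6 had a window in the table used.

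**Figure D1:**
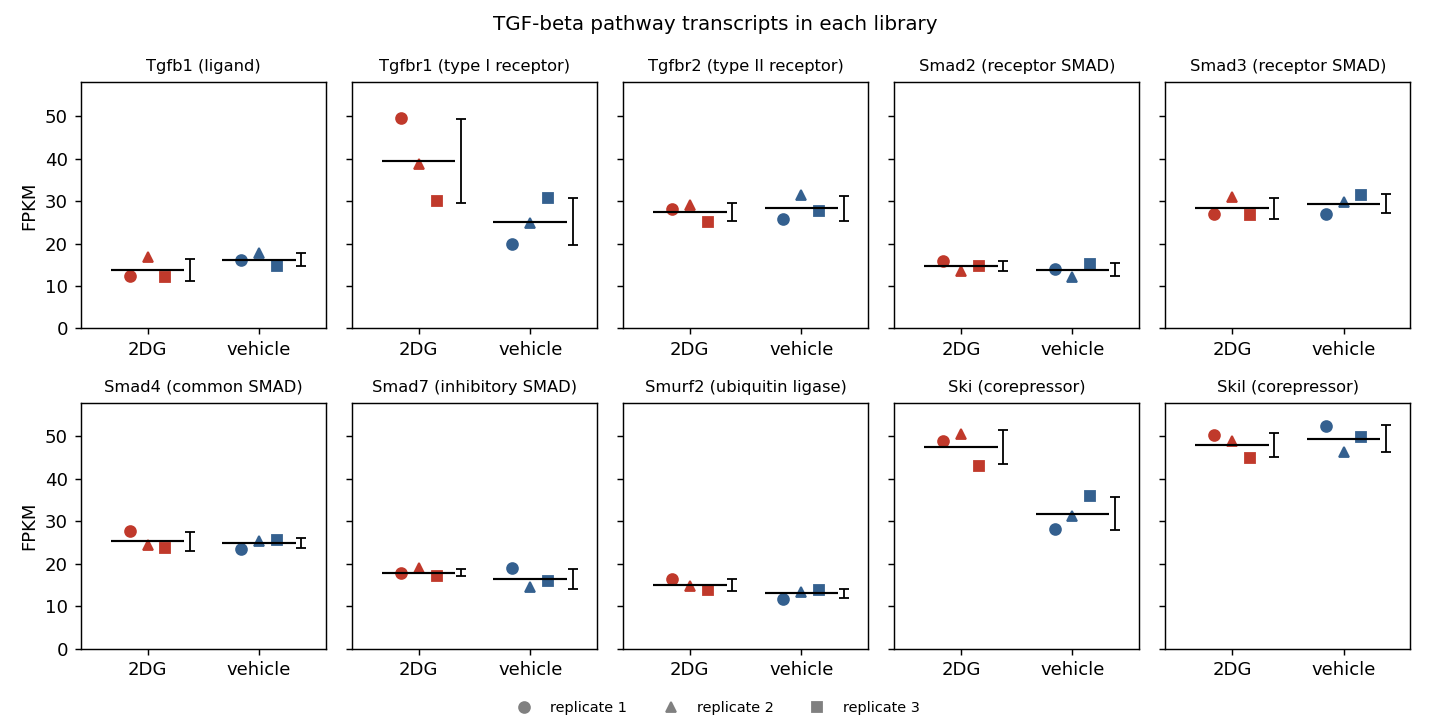
FPKM (vertical axis, same scale in all panels) of the 10 members in the 3 2DG libraries (left, red) and 3 vehicle libraries (right, blue), with symbols for the replicate numbers, a line at the mean and the SD beside it. Only for Ski do the groups not overlap, with 2DG libraries at 43.0 to 50.7 FPKM and vehicle libraries at 28.2 to 35.9 FPKM.

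Ski encodes a corepressor that silences SMAD target genes (locus XLOC_014996, chromosome 4, 155154075 to 155222592, minus strand, GRCm38). It was at 48.9, 50.7 and 43.0 FPKM in 2DG replicates 1, 2 and 3, against 28.2, 31.2 and 35.9 FPKM in vehicle replicates 1, 2 and 3. The lowest 2DG library lay above the highest vehicle library. The means were 47.5 ± 4.02 FPKM with 2DG and 31.8 ± 3.90 FPKM with vehicle (SD, n = 3 each). The log2 fold change was 0.57 ± 0.11 (SE), with a 95% interval of 0.31 to 0.83 and an adjusted p of 0.047 by limma, the 271st smallest p of all tested loci. Left out in turn, each of the 6 libraries took the adjusted p above the threshold: it was 0.16, 0.132 and 0.0641 without 2DG replicates 1, 2 and 3, and 0.10, 0.137 and 0.0534 without vehicle replicates 1, 2 and 3. The log2 fold change stayed between 0.49 and 0.66 in these 6 fits, each with 5 libraries in place of 6. It was 0.47 with replicates 2 and 3 of both groups only (adjusted p = 0.266), a choice made after seeing the data.

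Skil, the paralogue of Ski and itself a gene that TGF-beta induces (XLOC_012589, chromosome 3, 31095058 to 31122577), was at 50.3, 48.9 and 44.8 FPKM with 2DG, against 52.5, 46.3 and 49.8 FPKM with vehicle. The groups overlapped, and the difference did not pass (log2 fold change -0.04 ± 0.08 SE, 95% interval -0.24 to 0.15, adjusted p = 0.83). As a description, Ski made up 49.3%, 50.9% and 49.0% of the summed FPKM of Ski and Skil in the 2DG libraries, against 35%, 40.3% and 41.9% in the vehicle libraries. In each vehicle library Skil was above Ski, while with 2DG the ranges of the pair overlapped. No stretch of 50 bases of a Ski or Skil transcript occurred in a transcript of another gene in GENCODE M21, so reads of that length that match exactly are not shared between them.

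**Figure D2:**
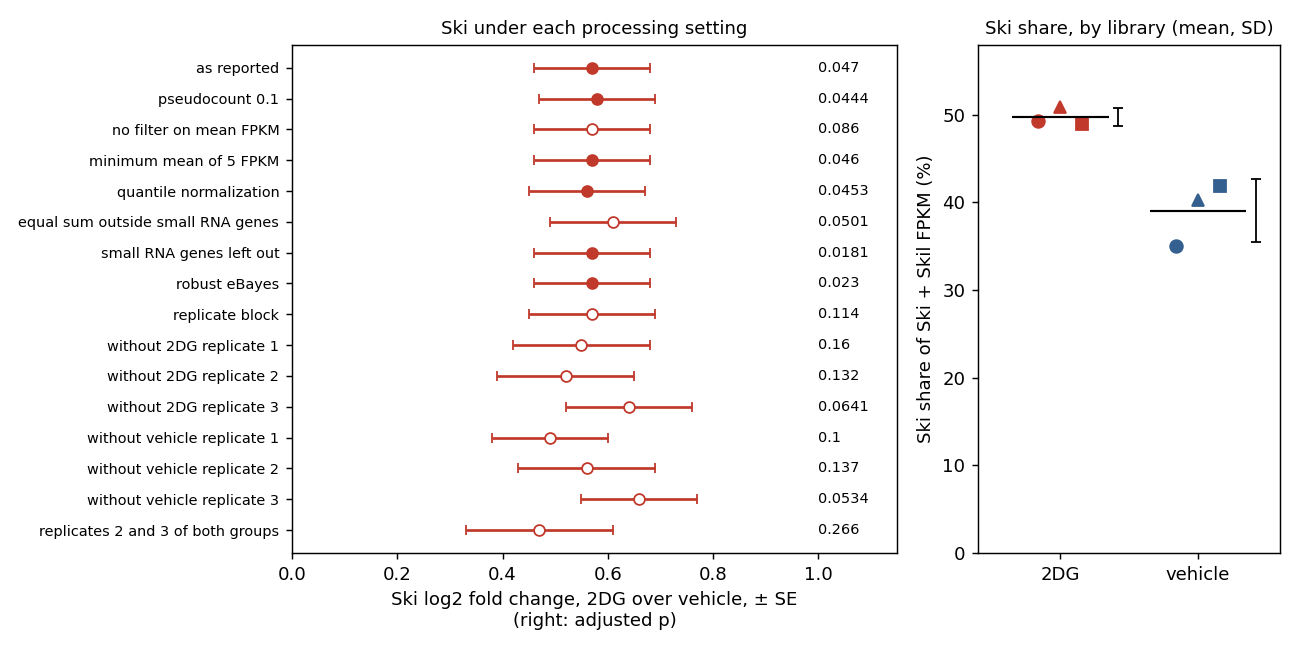
Left, log2 fold change of Ski (horizontal axis, 2DG over vehicle, of FPKM + 1, with SE) as reported and under each of 15 alternative settings, filled where the adjusted p printed at the right is under 0.05. Right, share of Ski in the summed FPKM of Ski and Skil per library, with mean and SD. The fold change ran from 0.47 to 0.66 and the call was kept in 5 of 15 settings, and the share was 49.0% to 50.9% with 2DG and 35% to 41.9% with vehicle.

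Tgfbr1, the type I receptor kinase (XLOC_013774, chromosome 4, 47353222 to 47414931), had the largest fold change and the widest scatter. It was at 49.7, 38.8 and 30.0 FPKM in 2DG replicates 1, 2 and 3, against 19.8, 24.8 and 30.8 FPKM in vehicle replicates 1, 2 and 3. The lowest 2DG library was just under the highest vehicle library, so the groups overlapped, and the widest gap lay between the replicate 1 libraries. The difference did not pass (log2 fold change 0.62 ± 0.21 SE, 95% interval 0.12 to 1.12, unadjusted p = 0.021, adjusted p = 0.18 by limma). The log2 fold change was 0.29 with replicates 2 and 3 of both groups only (adjusted p = 0.590). The SD was 24.9% of the mean with 2DG and 21.9% with vehicle, against 4.6% to 18.8% for the 8 members other than Tgfbr1 and Ski.

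Tgfbr2, the type II receptor that binds the ligand (XLOC_022037, chromosome 9, 116084293 to 116175360), was at 28.1, 29.1 and 25 FPKM with 2DG, against 25.7, 31.5 and 27.7 FPKM with vehicle. The groups overlapped (log2 fold change -0.04 ± 0.10 SE, adjusted p = 0.87). As a description, the ratio of Tgfbr1 to Tgfbr2 within a library was 1.76, 1.33 and 1.2 with 2DG, against 0.770, 0.788 and 1.11 with vehicle. The type I receptor transcript was thus above the type II transcript in every 2DG library and in 1 of 3 vehicle libraries.

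Tgfb1, the ligand made by the cells themselves (XLOC_017812, chromosome 7, 25687002 to 25705077), was at 12.5, 16.8 and 12.1 FPKM with 2DG, against 16.2, 17.7 and 14.7 FPKM with vehicle. One 2DG library, replicate 2, lay within the vehicle range and the other two below it. The means were 13.8 ± 2.60 FPKM with 2DG and 16.2 ± 1.49 FPKM with vehicle (SD, n = 3 each), and the difference did not pass (log2 fold change -0.23 ± 0.14 SE, 95% interval -0.55 to 0.09, adjusted p = 0.45).

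The SMAD transcripts that carry the signal showed no difference that passed. Smad2 (XLOC_009549, chromosome 18, 76241580 to 76310963) was at 15.8, 13.6 and 14.8 FPKM with 2DG, against 14.0, 12.1 and 15.2 FPKM with vehicle (adjusted p = 0.71). Smad3 (XLOC_021804, chromosome 9, 63646767 to 63757994) was at 27.0, 31.1 and 26.7 FPKM with 2DG, against 26.9, 29.9 and 31.5 FPKM with vehicle (adjusted p = 0.80). Both receptor SMADs thus overlapped between groups, and Smad3 stood above Smad2 in every library. Smad4, their common partner (XLOC_009779, chromosome 18, 73639009 to 73703780), was at 27.7, 24.4 and 23.7 FPKM with 2DG, against 23.6, 25.4 and 25.6 FPKM with vehicle (adjusted p = 0.94). The unadjusted 95% intervals of their changes on the FPKM + 1 scale ran from 0.896 to 1.27-fold for Smad2, 0.823 to 1.12-fold for Smad3 and 0.879 to 1.17-fold for Smad4, so a 1.5-fold change in either direction lay outside each.

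Ratios within a library are free of its scaling. The ratio of Smad3 to Smad2 was 1.71, 2.29 and 1.81 with 2DG, against 1.92, 2.46 and 2.07 with vehicle, a log2 difference of -0.16 (exact two-sided permutation p = 0.40). The ratio of Ski plus Skil to Smad2 plus Smad3 was 2.32, 2.23 and 2.12 with 2DG, against 1.97, 1.84 and 1.84 with vehicle. Here the groups did not overlap, with means of 2.22 ± 0.0985 with 2DG and 1.88 ± 0.0752 with vehicle (SD, n = 3 each), a log2 difference of 0.24 and an exact two-sided permutation p of 0.10, the smallest that 3 against 3 libraries allow. The ratio holds Ski itself, whose own values are given above, and both ratios were tested without adjustment.

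The inhibitors of the receptor did not pass either. Smad7, which blocks the receptor and is induced by the signal (XLOC_009546, chromosome 18, 75367529 to 75395935), was at 17.7, 18.9 and 17.1 FPKM with 2DG, against 18.9, 14.5 and 15.8 FPKM with vehicle (log2 fold change 0.13 ± 0.11 SE, adjusted p = 0.61). Smurf2, the ubiquitin ligase that Smad7 brings to the receptor (XLOC_003944, chromosome 11, 106820066 to 106920715), was at 16.5, 14.7 and 13.8 FPKM with 2DG, against 11.7, 13.3 and 13.9 FPKM with vehicle (log2 fold change 0.20 ± 0.10 SE, adjusted p = 0.37). The groups overlapped for both. A microRNA gene, Gm27322, overlaps the start of Smurf2 on the same strand, and a processed pseudogene lies within Smad4 on the opposite strand; whether the authors counted by strand is not given in the sources used here.

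**Figure D3:**
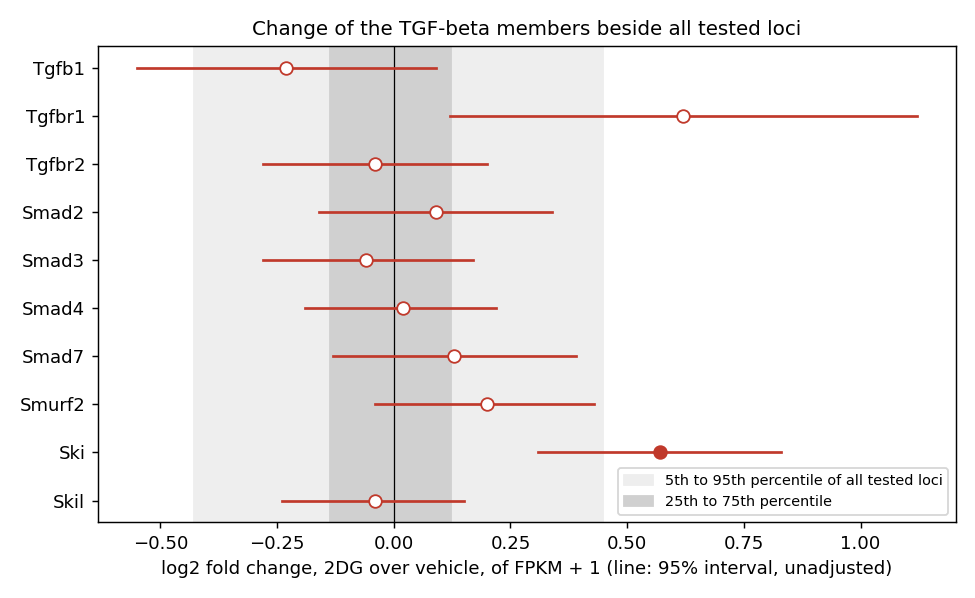
Log2 fold change of each member (horizontal axis, 2DG over vehicle, of FPKM + 1, with its unadjusted 95% interval; filled where the adjusted p is under 0.05), over bands that hold the 25th to 75th (-0.14 to 0.12) and 5th to 95th (-0.43 to 0.45) percentiles of all tested loci. Ski at 0.57 and Tgfbr1 at 0.62 lie beyond the outer band, and only the point of Ski is filled.

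FPKM is scaled by length, so levels can be ordered roughly between genes. Of the 50-base stretches in Tgfbr2 transcripts 1.23% occur in other genes, and of those in Tgfb1 transcripts 0.635%. For the other members the share was 0.143% or less. The effect of such sharing on the levels was not tested. All 10 members were in the middle to upper range of tested loci, with mean FPKM between the 48.6th percentile for Smurf2 and the 81.6th for Skil. With 2DG the order of mean levels was Skil (48.0 FPKM), Ski (47.5), Tgfbr1 (39.5), Smad3 (28.3), Tgfbr2 (27.4), Smad4 (25.3), Smad7 (17.9), Smurf2 (15.0), Smad2 (14.7) and Tgfb1 (13.8). With vehicle it was Skil (49.5 FPKM), Ski (31.8), Smad3 (29.4), Tgfbr2 (28.3), Tgfbr1 (25.1), Smad4 (24.9), Smad7 (16.4), Tgfb1 (16.2), Smad2 (13.8) and Smurf2 (13.0). Neighbours whose library values did not overlap were Smad4 over Smad7 in both groups, Smad7 over Smurf2 with 2DG, and Skil over Ski with vehicle. All other neighbours in these orders overlapped.

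Across the 6 libraries the 3 loci whose log2 values followed Ski most closely were Hs6st1, a heparan sulfate sulfotransferase gene (Pearson r = 0.9974), Il18rap, an IL-18 receptor subunit gene (r = 0.9969), and Zfp568, a zinc finger gene (r = 0.9956). These are descriptions over 6 libraries that share 2 groups, and 147 loci had an r of at least 0.95 with Ski. Il18rap was at 3.05, 3.13 and 2.08 FPKM with 2DG, against 0.319, 0.573 and 0.955 FPKM with vehicle. Hs6st1 was at 10.4, 10.7 and 9.05 FPKM with 2DG, against 6.50, 7.13 and 8.13 FPKM with vehicle (adjusted p = 0.10 by limma). Zfp568 changed little, at 4.25, 4.28 and 4.06 FPKM with 2DG, against 3.48, 3.57 and 3.86 FPKM with vehicle (log2 fold change 0.17, adjusted p = 0.44 by limma). Neither Hs6st1 nor Zfp568 passed the test. In these loci, as in Ski, 2DG replicate 3 was the lowest 2DG library and vehicle replicate 3 the highest vehicle library.

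Around the members, 108 other genes of the pathway were looked up in 11 lists, also chosen with earlier results of these data known. Of these genes, 69 were tested and 39 had a mean under 1 FPKM. Of the 69, 2 rose, 0 fell and 67 did not pass, so 2.90% were called against 2.72% of all tested loci in either direction. Their median log2 fold change was 0.01, and groups did not overlap for 16 of them (23.2%, against 23.7% of all tested loci).

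The 2 that rose were Runx1 and Id2. Runx1, a transcription factor that partners with SMADs, was at 23.3, 22.9 and 18.4 FPKM with 2DG, against 9.62, 12.6 and 12.8 FPKM with vehicle (log2 fold change 0.83 ± 0.14 SE, adjusted p = 0.030). Runx1 lost its call without 2DG replicate 1 or 2 or any single vehicle library (adjusted p between 0.0568 and 0.122). It also lost it with replicates 2 and 3 only (0.163), without a filter on mean FPKM (0.0682) and with the replicate number as a block (0.0862). The call was kept in 7 of 15 settings. Id2, an inhibitor of helix-loop-helix factors that SMADs regulate, was at 158, 141 and 139 FPKM with 2DG, against 88.0, 67.1 and 61.8 FPKM with vehicle (log2 fold change 1.02 ± 0.14 SE, adjusted p = 0.017). Id2 lost its call without 2DG replicate 1 (0.0663), 2DG replicate 2 (0.0628) or vehicle replicate 2 (0.0596). For both genes every 2DG library lay above every vehicle library.

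In the list drawn up as nuclear corepressors, which leaves out Ski and Skil, 0 of 7 tested genes passed. Only 2.72% of all tested loci were called in either direction. Counts of 0 in lists as small as this and those below therefore say little about them. Snw1, placed in this list without a test of its role, was at 59.4 ± 1.72 FPKM with 2DG and 60.0 ± 1.47 FPKM with vehicle (SD, n = 3 each). Ncor1 was at 30.7 ± 2.21 FPKM with 2DG and 29.3 ± 2.75 FPKM with vehicle. Of 17 ubiquitin ligases, deubiquitinases and phosphatases of the pathway 0 passed, with Uchl5 at 57.9 FPKM with 2DG and 59.4 FPKM with vehicle, and Usp15 at 48.2 FPKM with 2DG and 47.1 FPKM with vehicle. In the list of genes that store or activate latent TGF-beta, 0 of 4 passed; Furin, the protease that cuts the TGF-beta precursor, was at 137 ± 28.4 FPKM with 2DG and 155 ± 17.5 FPKM with vehicle, and Itgav, the integrin chain that releases it, at 15.3 FPKM with 2DG and 17.1 FPKM with vehicle. Of transcripts known to be induced by TGF-beta 0 of 4 passed, with Klf10 at 25.4 ± 3.31 FPKM with 2DG and 17.9 ± 1.17 FPKM with vehicle (adjusted p = 0.078) and Cdkn1a at 12.6 FPKM with 2DG and 18.0 FPKM with vehicle (adjusted p = 0.21).

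No gene passed in the TAK1 branch (0 of 6), the adaptors (0 of 7) or the other family receptors (0 of 7). None passed among other ligands (0 of 3) or other SMADs (0 of 2). Beside 2.72% of all tested loci called, these counts of 0 do not set the lists apart. Among the adaptors, Strap, which binds the receptors together with Smad7, was at 125 ± 10.6 FPKM with 2DG and 115 ± 10.0 FPKM with vehicle (SD, n = 3 each). Fkbp1a, whose product holds the type I receptor inactive, was at 51.4, 44.8 and 56.0 FPKM with 2DG, against 90.1, 67.9 and 69.2 FPKM with vehicle (adjusted p = 0.081). Every 2DG library of Fkbp1a lay below every vehicle library, without passing the test. In the TAK1 branch the ubiquitin ligase Traf6 was at 52.2 ± 3.09 FPKM with 2DG and 65.6 ± 6.59 FPKM with vehicle (adjusted p = 0.14), and Traf4 at 24.4 ± 4.45 FPKM with 2DG and 24.9 ± 1.92 FPKM with vehicle. Smad1, a SMAD of the BMP branch, was at 11.1, 10.5 and 9.71 FPKM with 2DG, against 7.89, 7.70 and 8.01 FPKM with vehicle (adjusted p = 0.077). Here every 2DG library lay above every vehicle library, again without passing, while those of Smad5, of the same branch, overlapped at means of 6.05 FPKM with 2DG and 5.56 FPKM with vehicle. Of the receptors, the co-receptor Tgfbr3 averaged 11.4 ± 0.295 FPKM with 2DG and 9.64 ± 0.564 FPKM with vehicle (adjusted p = 0.22), and the activin type I receptor Acvr1b 9.22 ± 1.71 FPKM with 2DG and 10.2 ± 2.34 FPKM with vehicle. Of the ligands, Inhba, an activin subunit, was at 3.42, 5.11 and 2.78 FPKM with 2DG, against 6.24, 4.04 and 4.54 FPKM with vehicle, and Gdf11 averaged 3.39 ± 0.412 FPKM with 2DG and 3.93 ± 0.713 FPKM with vehicle.

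**Figure D4:**
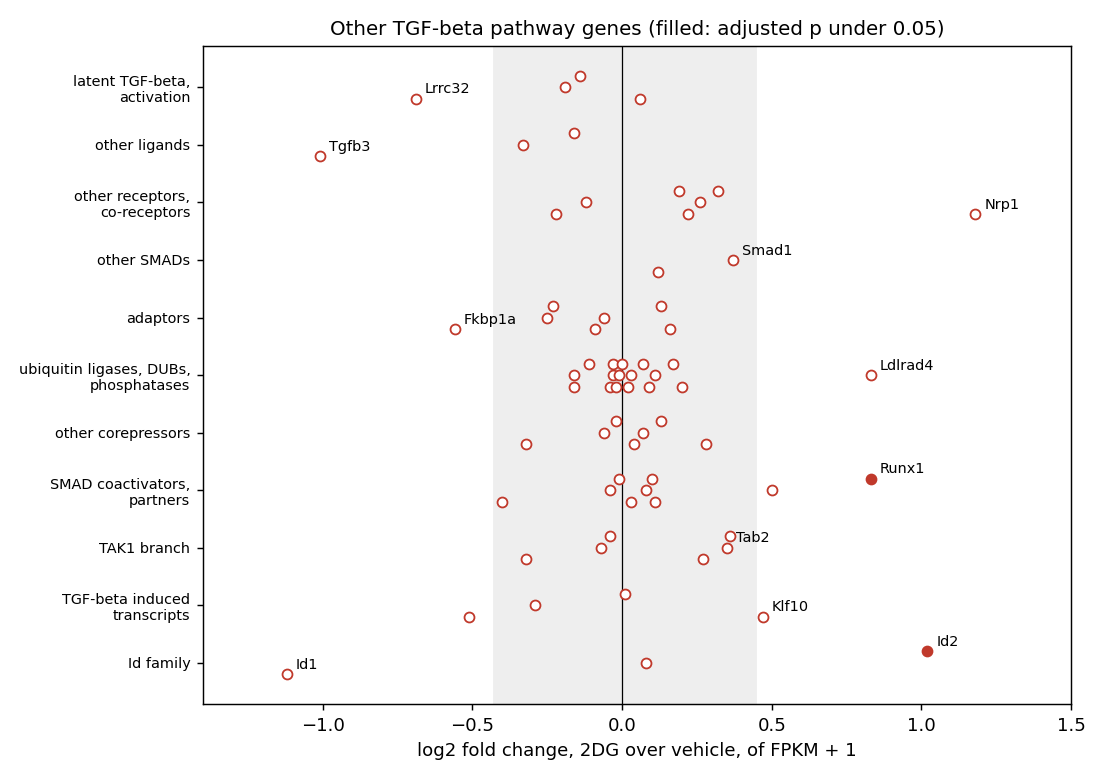
Log2 fold change (horizontal axis, 2DG over vehicle, of FPKM + 1) of the 69 tested genes in 11 pathway lists, 1 point a gene, filled where the adjusted p is under 0.05; the band holds the 5th to 95th percentile of all tested loci. Most points lie within the band of -0.43 to 0.45, and the filled points are Runx1 (0.83) and Id2 (1.02).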

How the data were processed

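The authors deposited 1 table of FPKM values per locus for 3 2DG and 3 vehicle libraries, with the columns matched to samples by name, per the file headers. The submitters' processing notes list the mm10 build, Cuffdiff 2.2.1.3, Cuffnorm 2.2.1.1, Cufflinks 2.2.1.0 and TopHat2 2.1.0. The gene annotation, strandedness, scaling and tool settings were not given in the sources used here. FPKM are not counts, and only 13.7% to 22.6% of ratios of low values (0.002 to 0.3 FPKM) lay within 0.05 log2 of their most frequent value, so whole fragments could not be recovered. An exact 0 can be a failed estimate.

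Values were tested with limma 3.58.1 (R 4.3.3) as log2(FPKM + 1), with group as the only term, eBayes with a trend and Benjamini-Hochberg adjustment over the 10228 loci that averaged 1 FPKM or more. The pseudocount makes log2 fold changes of low genes too small. On simulated data with 10228 loci the code recovered 98.8% of 4-fold, 89.0% of 2-fold and 54.8% of 1.5-fold changes, and 4.48% of its calls were false. The simulated noise was independent between libraries and used the spread limma had fitted, with folds set on FPKM + 1. Effects shared by replicates or due to depth were not simulated, so these rates may not hold for the real libraries. Ratios without log2 are of mean FPKM. Gene positions are those of GENCODE M21 (GRCm38, equal to mm10), and promoter windows are from RefSeq (GRCm38.p6). Symbols were matched directly or through synonyms. The members, lists and alternatives were chosen with earlier results of these data known. A gene of the Th17 marker list is not reported here and was left out of its sum. Named genes are the members, list genes past the threshold or otherwise the 2 highest in mean FPKM per list, and the 3 loci most correlated with the member of smallest p. Alternatives were pseudocount 0.1, no filter, a minimum mean of 5 FPKM, quantile normalization, equal sums outside small RNA genes, small RNA genes left out, robust eBayes, the replicate block and leaving out each library. Figures were drawn with matplotlib 3.10.9.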

Additional observations from a re-analysis of the deposited data

How the results depend on the processing

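Across 15 settings the change of Ski kept its direction and its log2 fold change lay between 0.47 and 0.66, and 5 settings kept its call. The next counts are of loci called higher, loci called lower, members called higher and list genes called higher, in that order. Without a filter on mean FPKM they were 100, 65, 0 and 1. With small RNA genes left out they were 270, 246, 1 and 3, and with robust eBayes 247, 199, 1 and 4. In each of these last 2 settings 2 list genes, Fkbp1a and Tgfb3, were called lower. Klf10 was called higher in both (adjusted p = 0.0424 and 0.0495 by limma). Nrp1 was called higher with robust eBayes (0.0246), without vehicle replicate 1 (0.0412) and without vehicle replicate 3 (0.049). With equal sums outside small RNA genes 0 members were called, with Ski at an adjusted p of 0.0501. The replicate block gave 57, 44, 0 and 1 (adjusted p = 0.114 for Ski and 0.0862 for Runx1, while Id2 stayed called at 0.0285), and replicates 2 and 3 of both groups, chosen after seeing the data, gave 43, 28, 0 and 1. The titles give 1 library of each group the number 17, 42 or 43 without saying what it marks. Deviations of same-numbered libraries correlated at -0.085, 0.449 and -0.242, and not every library correlated best with its own number. These correlations cannot decide if libraries were paired, because deviations from the mean of a group of 3 cancel out by construction. The main fit took no pairing, and the replicate block is given as an alternative. Both number 17 libraries stand apart at Rn45s and in their FPKM sums over all loci. In the sums outside small RNA genes vehicle replicate 1 does not stand apart. The labels leave unsaid if a number marks a shared source. Leaving out 1 library gave 52 to 98 loci higher, 25 to 69 lower, 0 members and 0 to 2 list genes higher. With 1 library left out Smad4 ran from -0.05 to 0.06, Skil from -0.09 to 0.0035 and Tgfbr2 from -0.11 to 0.04, so signs near 0 changed: Smad4 was -0.05 without 2DG replicate 1, -0.02 without vehicle replicate 1 and -0.08 with replicates 2 and 3; Skil was 0.0035 and Tgfbr2 0.02 without 2DG replicate 3, and Tgfbr2 was 0.04 without vehicle replicate 2. The difference in corepressor to receptor SMAD ratio stayed at 0.21 to 0.27. The cause of these shifts was not tested. With 3 libraries a group and unknown depth, changes under about 1.5-fold are often missed.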

Other observations

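Pathway genes outside the rule for named genes that came near the threshold are given as values chosen after they were seen. Tgfb3, another TGF-beta ligand, was at 0.571, 0.920 and 1.14 FPKM with 2DG, against 3.88, 2.66 and 1.93 FPKM with vehicle (adjusted p = 0.063 by limma). Nrp1, a co-receptor for TGF-beta and semaphorins whose locus also names Mir1903, was at 6.36, 6.15 and 5.79 FPKM with 2DG, against 1.1, 2.44 and 3.23 FPKM with vehicle (adjusted p = 0.056). Tab2, an adaptor of the kinase TAK1, was at 26.0, 25.1 and 24.7 FPKM with 2DG, against 18.3, 19.8 and 20.9 FPKM with vehicle (adjusted p = 0.071). In all 3 the groups did not overlap, as in 23.7% of all tested loci, and choosing genes near the threshold favours this.

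Id1, Id3 and Tgfbi were also chosen after their values were seen. Of the relatives of Id2, Id1 was at 3.09, 1.80 and 3.63 FPKM with 2DG, against 4.47, 11.4 and 6.94 FPKM with vehicle (adjusted p = 0.12), with every 2DG library below every vehicle library. Id3 averaged 18.0 ± 3.58 FPKM with 2DG and 17.0 ± 3.51 FPKM with vehicle (SD, n = 3 each), with an adjusted p of 0.86. Tgfbi, a transcript named for its induction by TGF-beta, had a mean too low to be tested: 1.76, 1.89 and 0.697 FPKM in 2DG libraries, against 0 (listed), 0.154 and 0.430 FPKM in vehicle libraries.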
